A study of Mus musculus with 12 samples.

Results

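The AMPA and NMDA receptor subunit genes were examined in spinal cord RNA of 3-month-old C57BL6 mice with and without astrocyte deletion of Tardbp, the gene of the nuclear RNA-binding protein TDP-43. The members were the 4 AMPA genes Gria1, Gria2, Gria3 and Gria4 and the 6 NMDA genes Grin1, Grin2a, Grin2b, Grin2c, Grin2d and Grin3a, found by symbol in the authors' table. They are 10 of its 36121 genes, each symbol has 1 row, and all 10 passed the filter of a mean of at least 1 TPM, which 15259 genes passed. TPM, the authors' unit of abundance, is scaled for transcript length, so levels can be compared between genes. Mice called cKO were Gfap-Cre; Tardbp-fl/fl, with both Tardbp alleles floxed, mice called cHet were Gfap-Cre; Tardbp-fl/+, with 1 floxed allele, and control mice were Tardbp-fl/fl with no Cre in their label. Each group held 4 mice, 2 males and 2 females, with 1 library per mouse. The Cre is driven by the astrocyte gene Gfap, and no group had Cre without a floxed allele, so Cre itself and loss of Tardbp cannot be told apart in comparisons with control mice. The RNA came from whole tissue, in which fewer cells of a type and less RNA per cell cannot be told apart.

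AMPA receptors are cation channels that carry fast excitatory transmission, and each is assembled from the products of Gria1 to Gria4. NMDA receptors need GluN1, the product of Grin1, together with GluN2 subunits from Grin2a to Grin2d or GluN3 subunits such as that of Grin3a. Receptors of GluN1 and GluN2 subunits open only when glutamate binds together with glycine or D-serine, and magnesium ions block them until the membrane is depolarized. In the cord AMPA and NMDA receptors serve sensory transmission in the dorsal horn and the drive to motor neurons, and glial cells also express some of the subunits.

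Each library had 15188 to 15384 genes at or above 1 TPM, and all 12 columns of values were distinct. The deposited values summed to 1017855 to 1048381 in cKO, 983452 to 1023987 in cHet and 954895 to 978621 in control libraries, so the authors' scaling left a higher total in cKO than in control. Tardbp itself was measured at 140.5 to 151 TPM in the 4 cKO libraries, 158 to 178 TPM in cHet and 166 to 181 TPM in control libraries, and the cKO libraries lay below all others. Markers of neurons, astrocytes and oligodendrocytes were all above 0, while 5 markers of dorsal root ganglion neurons summed to at most 1.23 TPM in any library.

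Of the 10 subunit genes, 2 fell in cKO and none rose. The mean TPM of Grin2c fell by 45.9% against control and fell by 45.4% against cHet. That of Gria1 fell by 17.8% against control and fell by 21.3% against cHet. No subunit gene was called in cHet against control. A gene was called at an adjusted p under 0.05 in limma with Benjamini-Hochberg adjustment over all 15259 genes, and that rule called 9.00% of all genes in cKO against control (5.75% higher and 3.25% lower), 0.00% in cHet against control and 5.01% in cKO against cHet (2.41% higher and 2.61% lower). The split in cKO against control depended on scaling, with 878 genes higher and 496 lower as deposited and 473 higher and 822 lower after rescaling to equal totals without mitochondrial genes. The libraries of the groups did not overlap for 2 of 10 members in cKO against control, where 17.1% of all genes had such groups, for 1 in cHet against control (6.23% of all genes) and for 4 in cKO against cHet (11.5% of all genes). With 10 members, these counts are a description of the family, and each pair of comparisons shares the libraries of a group.

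**Figure D1:**
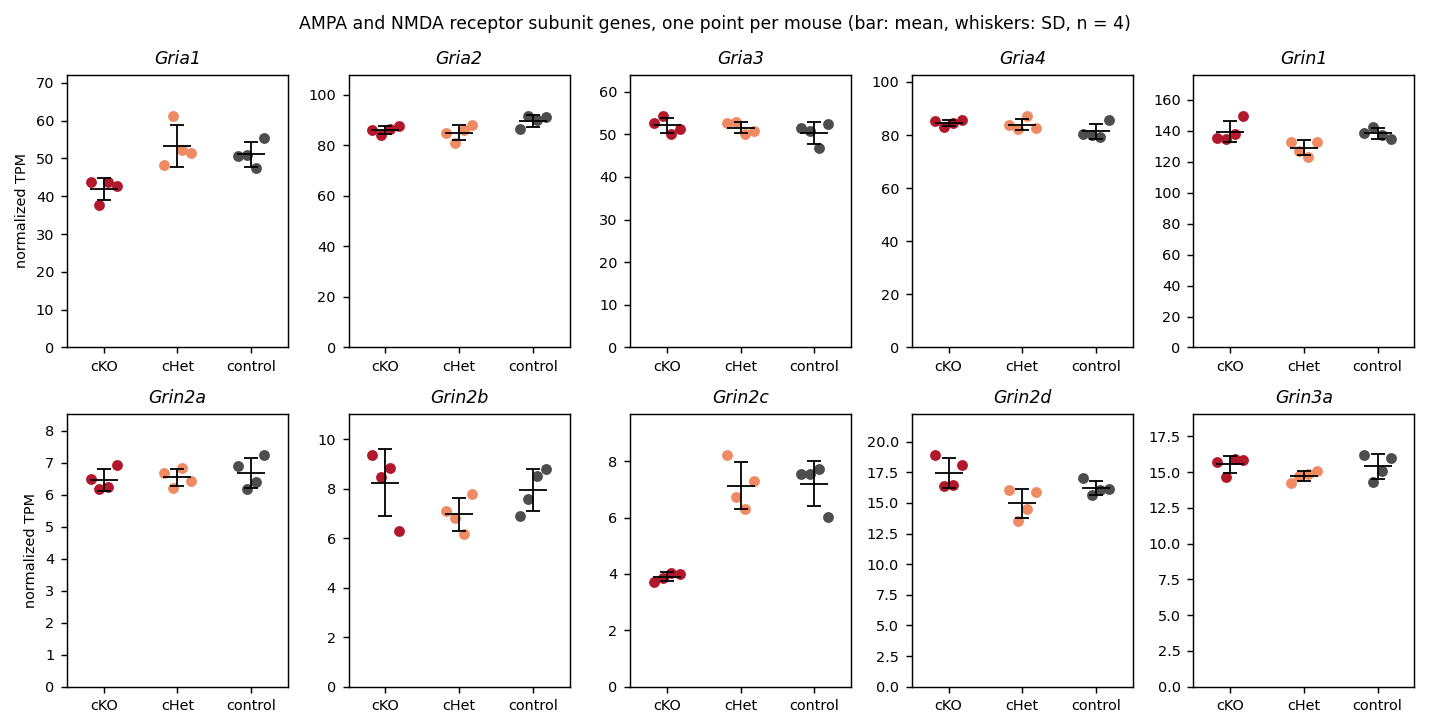
Normalized TPM of the 10 subunit genes (vertical axes from 0, 1 panel per gene) in cKO, cHet and control mice. Points are single mice and the bar with whiskers is the mean with its SD (n = 4). The 4 cKO points of Grin2c lie between 3.70 and 4.05 TPM and those of Gria1 between 37.6 and 43.7 TPM, below every point of the other groups, while the groups of most other genes overlap.

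The most abundant subunit message in every group was that of Grin1, at 139 ± 6.87 TPM in cKO, 129 ± 4.77 in cHet and 138 ± 3.37 in control (SD, n = 4). Gria2 and Gria4 came next with group means of 81.4 to 89.7 TPM, and their libraries overlapped with each other in cKO and cHet but not in control. Gria3 and Gria1 followed, then Grin2d and Grin3a. The least abundant were Grin2a, Grin2b and Grin2c. Among these last 3 the libraries of neighbours in the order overlapped within cHet and within control. In cKO Grin2c stood last, with its highest library below the lowest of Grin2a. Gria1 and Gria3 overlapped in cHet and in control, and in cKO every Gria1 library lay below every Gria3 library.

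Grin2c encodes GluN2C, a GluN2 subunit whose receptors are only weakly blocked by magnesium and which is known in mouse brain from cerebellar granule cells and astrocytes. The gene (ENSMUSG00000020734) is on the minus strand of chromosome 11, 115249169 to 115267243 in GRCm38. Its level was 3.70, 3.84, 4.05 and 4.0 TPM in the cKO libraries, 8.20, 6.74, 6.29 and 7.31 TPM in cHet libraries and 7.55, 7.53, 7.71 and 6.0 TPM in control libraries. The cKO libraries lay in a narrow band below all 8 others, and the cHet and control libraries overlapped. On the log2(TPM + 0.5) scale the change was -0.80 ± 0.09 (SE) in cKO against control (95% interval -1.01 to -0.60, limma adjusted p = 0.000338) and -0.79 ± 0.09 in cKO against cHet (limma adjusted p = 0.000539). Its difference between cHet and control was -0.01 ± 0.09 (95% interval -0.22 to 0.19). The calls in cKO held under all 24 alternatives tried for each comparison, with a log2 change between -0.88 and -0.73.

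The Grin2c promoter is printed because Grin2c is the member that changed most, and that of Grin1, its obligatory partner subunit gene, is set beside it as one whose level in cKO lay within 1 SD of control. Each window runs from 250 bases before to 50 bases after the start of the RefSeq gene, 5′ to 3′ on the minus strand of GRCm38.p6. Capitals mark the GC box letters GGGCGG, searched on both strands.
Grin2c, chr11:115267194-115267493: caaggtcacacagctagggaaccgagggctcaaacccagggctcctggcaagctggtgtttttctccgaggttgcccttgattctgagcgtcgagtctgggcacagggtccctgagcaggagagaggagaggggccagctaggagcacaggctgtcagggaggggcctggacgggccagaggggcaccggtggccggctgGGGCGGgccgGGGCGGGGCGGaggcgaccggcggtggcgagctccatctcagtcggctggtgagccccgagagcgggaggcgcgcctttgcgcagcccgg
Grin1, chr2:25319138-25319437: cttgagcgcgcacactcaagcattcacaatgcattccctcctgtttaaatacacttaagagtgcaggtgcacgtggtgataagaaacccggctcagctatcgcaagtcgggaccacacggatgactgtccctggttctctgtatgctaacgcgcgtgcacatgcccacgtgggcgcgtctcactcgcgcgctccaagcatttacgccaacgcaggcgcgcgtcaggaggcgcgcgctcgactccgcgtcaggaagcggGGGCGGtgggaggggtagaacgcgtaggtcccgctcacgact
The Grin2c window held 3 GC boxes, 50, 40 and 35 bases before the start, of which the last pair share a base. The Grin1 window held 1, shortly after the start. At least 1 such box was found in 35.7% of 32851 promoter windows of the same length, and the share of windows with 3 was not counted. GC content was 70.0% in the Grin2c window and 60.7% in that of Grin1, against a median of 52.7% over all windows. The GLI letters GACCACCCA, the NFI palindrome and TATAAA, searched on both strands, are in neither window. Over all windows, 0.253% held the GLI letters, 0.0365% the NFI palindrome and 13.6% TATAAA. RefSeq windows were at hand for 5 of the 10 members, Grin1, Grin2c, Grin2d, Gria2 and Gria4. Those of Grin2d, Gria2 and Gria4 held no GC box.

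Gria1 encodes GluA1, an AMPA subunit known for its regulated insertion at synapses. The gene (ENSMUSG00000020524) is on the plus strand of chromosome 11, 57011387 to 57330244. It was at 43.6, 37.6, 43.7 and 42.8 TPM in the cKO libraries, 48.4, 61.2, 52.2 and 51.6 TPM in cHet libraries and 50.6, 50.9, 47.4 and 55.4 TPM in control libraries. All 4 cKO libraries lay below all others, with cKO replicate 2 the lowest, and cHet replicate 2 was the highest of the 12. The log2 change was -0.28 ± 0.07 (SE) in cKO against control (95% interval -0.44 to -0.12, limma adjusted p = 0.0357) and -0.34 ± 0.07 in cKO against cHet (limma adjusted p = 0.0204). Between cHet and control the difference was 0.06 ± 0.07 (95% interval -0.10 to 0.22).

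The call of Gria1 lay near the threshold and was lost under 9 of 24 alternatives against control. Against control its limma adjusted p was 0.0508, 0.0991, 0.0535 and 0.0688 without cKO replicates 1, 2, 3 and 4, and 0.0683, 0.0797 and 0.0953 without control replicates 1, 2 and 4. It was 0.0693 with no filter on low values and 0.0545 without the variance trend. The log2 change stayed between -0.33 and -0.23 over the alternatives. Against cHet the limma adjusted p was 0.0619 without cKO replicate 2 (log2 change -0.29), and the call held without any other single mouse. In the authors' deposited table the q of Gria1 was 0.00232 by the Wald test and 0.0204 by the likelihood ratio test for cKO against control, and 0.0147 and 0.0561 for cKO against cHet. For Grin2c the authors' deposited table gave likelihood ratio q-values of 0.000424 and 0.00058 in these comparisons. It gave no other member a q under 0.05 by either test in any of the 3 comparisons. Over all genes with a q, the authors' deposited table had a q under 0.05 for 10.2% by the Wald test and 9.42% by the likelihood ratio test in cKO against control. These shares were 0.156% and 0.00% in cHet against control, and 4.94% and 3.78% in cKO against cHet.

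**Figure D2:**
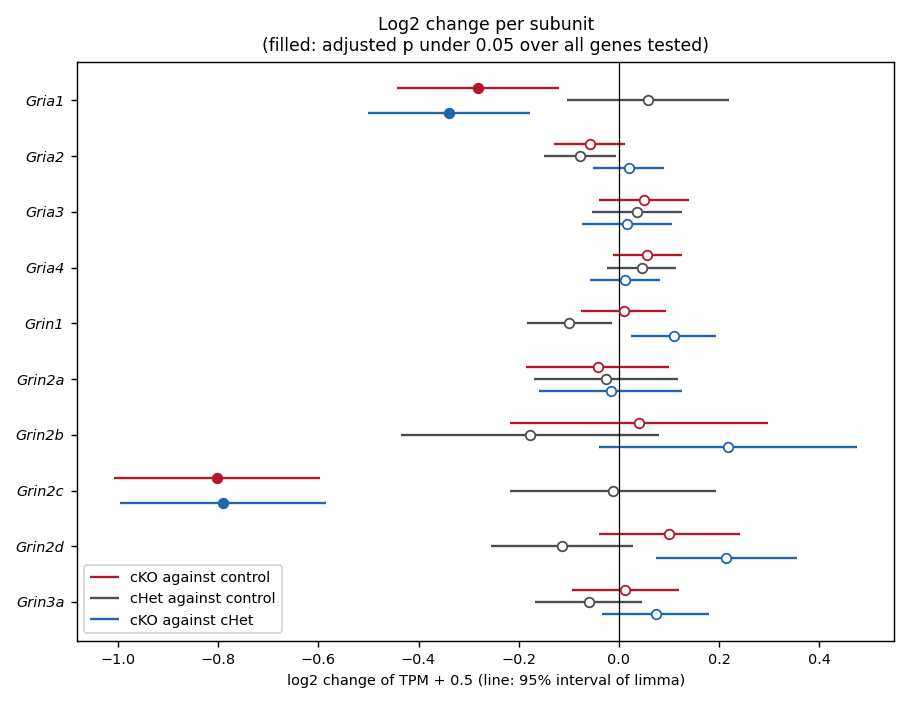
Log2 change of TPM + 0.5 (horizontal axis) for each subunit gene in cKO against control, cHet against control and cKO against cHet. Points are limma estimates with 95% intervals as lines, and filled points have an adjusted p under 0.05. Filled points belong to Gria1 and Grin2c in the comparisons with cKO, at -0.28 and -0.34 for Gria1 and -0.80 and -0.79 for Grin2c.

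The other 3 AMPA genes were not called in any comparison. Gria2 encodes GluA2, whose edited form keeps AMPA receptors nearly impermeable to calcium (chromosome 3, 80681450 to 80802835). It was at 86.0, 84.1, 86.4 and 87.7 TPM in cKO libraries, 84.7, 80.8, 86.2 and 88.1 TPM in cHet libraries and 86.2, 91.5, 89.8 and 91.2 TPM in control libraries, and the groups overlapped. The log2 difference of Gria2 was -0.06 ± 0.03 in cKO against control (95% interval -0.13 to 0.01, limma adjusted p = 0.325) and -0.08 ± 0.03 in cHet against control (limma adjusted p = 0.398). Gria4 (chromosome 9, 4417896 to 4796234), an AMPA subunit gene whose receptors have fast kinetics, was at 84.6 ± 1.15 TPM in cKO, 83.9 ± 2.19 in cHet and 81.4 ± 2.95 in control (SD, n = 4). Gria3 (chromosome X, 41400854 to 41678601) was at 52.1 ± 1.77 TPM in cKO, 51.6 ± 1.36 in cHet and 50.3 ± 2.505 in control. For these the 95% intervals in cKO against control, -0.01 to 0.13 for Gria4 and -0.04 to 0.14 for Gria3, leave out a change of the size of that of Gria1.

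Grin1 (chromosome 2, 25291181 to 25319187) was at 135, 135, 138 and 149 TPM in cKO libraries, 133, 127, 123 and 133 TPM in cHet libraries and 139, 143, 138 and 134 TPM in control libraries. Every cHet library of Grin1 lay below every control and cKO library. The log2 difference was -0.10 ± 0.04 in cHet against control (limma adjusted p = 0.374) and 0.11 ± 0.04 in cKO against cHet (limma adjusted p = 0.149), so neither passed the test. Grin1 in cKO against control had a difference of 0.01 ± 0.04 (95% interval -0.08 to 0.09).

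Grin2d encodes GluN2D, a subunit of slowly deactivating receptors (chromosome 7, 45831883 to 45878378). It was the most abundant GluN2 message, at 18.9, 16.4, 16.5 and 18.1 TPM in cKO libraries, 16.1, 13.5, 14.5 and 15.9 TPM in cHet libraries and 17.04, 15.7, 16.05 and 16.1 TPM in control libraries. The cKO libraries lay above all cHet libraries and overlapped with control libraries. Its log2 difference was 0.21 ± 0.06 in cKO against cHet (limma adjusted p = 0.0870) and 0.10 ± 0.06 in cKO against control (limma adjusted p = 0.404). Grin2d overlaps Kdelr1 on the opposite strand, which was at 55.2 TPM on average, and whether the counting used strand is not given in the sources used here, so its level is less certain.

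Grin2b, the GluN2B gene that is prominent in early development (chromosome 6, 135713233 to 136173511), ranged from 6.29 to 9.34 TPM in cKO, 6.17 to 7.79 TPM in cHet and 6.91 to 8.79 TPM in control libraries. The difference in cKO against control was 0.04 ± 0.12, with a wide 95% interval of -0.22 to 0.30. Grin2a, whose GluN2A product is the main adult partner of GluN1 in forebrain (chromosome 16, 9567898 to 9995560), ranged from 6.18 to 6.93 TPM in cKO, 6.23 to 6.83 TPM in cHet and 6.17 to 7.23 TPM in control libraries. Grin3a (chromosome 4, 49661611 to 49845744), the gene of a GluN3 subunit that binds glycine, was at 15.5 ± 0.577 TPM in cKO, 14.7 ± 0.373 in cHet and 15.4 ± 0.851 in control (SD, n = 4). The median log2 change of the 10 members was 0.01 in cKO against control, beside 0.01 over all genes, -0.04 in cHet against control, beside 0.01 over all genes, and 0.02 in cKO against cHet, beside 0.00 over all genes.

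Summed over the family, AMPA messages came to 265 ± 4.02 TPM in cKO, 274 ± 3.41 in cHet and 272 ± 9.19 in control (SD, n = 4). NMDA messages summed to 191 ± 6.91 TPM in cKO, 179 ± 6.98 in cHet and 192 ± 2.42 in control. The differences of these sums from control depended on scaling and on single mice. The AMPA difference, cKO minus control, was -7.67 TPM as deposited, -10.8 to -3.57 TPM without single mice and -17.6 TPM after rescaling to equal totals without mitochondrial genes. The NMDA difference, cKO minus control, was -0.81 TPM as deposited, -4.03 to 1.46 TPM without single mice and -7.88 TPM after that rescaling. For cHet minus control the AMPA difference changed sign, at 1.32 TPM as deposited, -1.79 to 5.42 TPM without single mice and -8.93 TPM rescaled. The NMDA difference, cHet minus control, was -12.3 TPM as deposited, -14.3 to -9.83 TPM without single mice and -19.3 TPM rescaled. For cKO minus cHet both differences kept their sign. The AMPA difference there was -8.99 TPM as deposited, -10.4 to -7.11 TPM without single mice and -8.68 TPM rescaled. The NMDA difference there was 11.5 TPM as deposited, 8.29 to 13.8 TPM without single mice and 11.4 TPM rescaled. Shares within a library do not depend on this scaling. The makeup of the AMPA sum moved with Gria1, its falling member. Gria1 made up 14.5% to 16.5% of the AMPA sum in cKO libraries, 17.9% to 22.1% in cHet and 18% to 19.5% in control libraries, and the cKO shares lay below all others. Gria4 made up 31.9% to 32.1% in cKO, 29.7% to 31.6% in cHet and 29.3% to 30.1% in control, and the cKO shares lay above all others. The share of Gria2 was 32.1% to 32.8% in cKO and 32.0% to 34.1% in control libraries, which overlap.

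Among the 4 GluN2 genes, Grin2c made up 9.62% to 11.4% of the sum in cKO libraries, 18.6% to 21.5% in cHet and 15.7% to 20.4% in control libraries. Grin2d made up 46.3% to 51.2% in cKO, 40.6% to 42.9% in cHet and 41.5% to 44.4% in control libraries, with every cKO share above all others. The sum of the GluN2 genes itself was 36.1 ± 1.60 TPM in cKO, 35.6 ± 2.44 in cHet and 38.1 ± 0.749 in control (SD, n = 4). Of the whole NMDA sum, Grin2c made up 1.95% to 2.14% in cKO, 3.66% to 4.42% in cHet and 3.18% to 4.03% in control libraries. Grin1 made up 71.5% to 74.5% of the NMDA sum in cKO, 71.7% to 72.6% in cHet and 71.3% to 73.5% in control libraries, which overlap. The ratio of Grin2a to Grin2b overlapped between the groups, at 0.696 to 1.10 in cKO, 0.826 to 1.11 in cHet and 0.754 to 0.999 in control libraries. Shares sum to a fixed whole, so a higher share of Gria4 or Grin2d does not show a higher level of it.

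**Figure D3:**
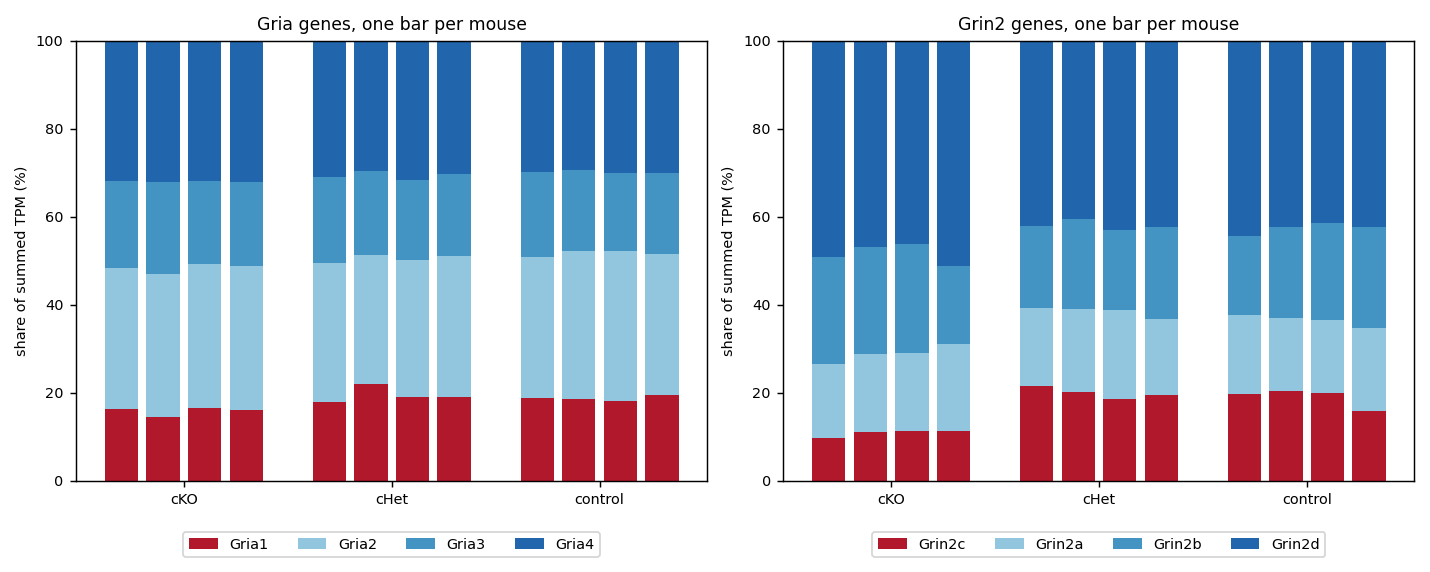
Share of each gene in the summed TPM of the Gria genes (left) and the Grin2 genes (right), in percent, with 1 bar per mouse grouped as cKO, cHet and control. The lowest block is Gria1 on the left, at 14.5% to 16.5% in cKO mice, and Grin2c on the right, at 9.62% to 11.4% in cKO mice, and both are shorter there than in any other mouse.

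In cHet against control limma called 0 of 15259 genes, with 1724 genes (11.3%) at an unadjusted p under 0.05, and the authors' deposited table gave 28 genes by the Wald test and 0 by the likelihood ratio test at a q under 0.05. Of the subunit genes, Gria2 and Grin1 had an unadjusted p under 0.05, and neither passed after adjustment. Grin1 was the 1 member whose cHet and control libraries did not overlap.

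The other genes of glutamate signalling were taken by lists. Over all genes, limma called 9.00% in cKO against control, 0.00% in cHet against control and 5.01% in cKO against cHet. Of 8 further ionotropic subunit genes, kainate receptor genes among them, none was called in any of the 3 comparisons, with a median log2 change of -0.03 in cKO against control. Grin3b was at 5.30 ± 0.554 TPM in cKO and 4.70 ± 0.129 in control (limma adjusted p = 0.417), and Grik1 at 9.53 ± 0.867 TPM in cKO and 10.4 ± 1.38 in control (limma adjusted p = 0.546). In cKO against cHet the ionotropic genes of smallest p were Grin3b, at 5.30 ± 0.554 TPM in cKO and 4.53 ± 0.694 in cHet, and Grid1, at 15.99 ± 1.25 TPM in cKO and 14.6 ± 0.558 in cHet (limma adjusted p = 0.305 and 0.457). Of 7 metabotropic receptor genes tested, 1 fell in cKO, Grm3, which encodes the inhibitory G protein-coupled receptor mGluR3 of astrocytes and neurons. It was at 10.4, 11.1, 11.02 and 10.2 TPM in cKO libraries, 16.1, 15.0, 15.4 and 14.2 TPM in cHet libraries and 14.5, 14.9, 15.4 and 14.6 TPM in control libraries. The fall of Grm3 was 0.46 ± 0.05 on the log2 scale against control (limma adjusted p = 0.000243) and 0.49 ± 0.05 against cHet (limma adjusted p = 0.000201), with all cKO libraries below the others. The median log2 change of the 7 genes was -0.09 in cKO against control.

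Of 16 auxiliary subunit genes of AMPA and kainate receptors 2 rose in cKO against control and none fell. The share of all genes called in that comparison was 9.00%. Cnih2, a cornichon gene whose product aids export and slows closing of AMPA receptors, was at 50.6, 60.4, 57.0 and 56.0 TPM in cKO libraries, 44.7, 48.4, 45.1 and 50.7 TPM in cHet libraries and 45.2, 46.5, 45.9 and 41.3 TPM in control libraries. Cnih2 rose by 0.32 ± 0.06 against control on the log2 scale (limma adjusted p = 0.00654). Against cHet, where 1 pair of libraries overlapped, its log2 change was 0.24 ± 0.06 (limma adjusted p = 0.0394), a call lost under 13 of 24 alternatives, among them those without cKO replicate 2, 3 or 4, cHet replicate 1, 2 or 3, or control replicate 1, 2 or 3 (adjusted p = 0.0517 to 0.110). Cacng8, the gene of TARP gamma-8, another AMPA receptor partner, was at 13.9 ± 1.21 TPM in cKO and 11.52 ± 0.554 in control (SD, n = 4; limma adjusted p = 0.0239). The call of Cacng8 was lost without cKO replicate 2 or 4 or control replicate 3 or 4 (adjusted p = 0.0526 to 0.0679) and after rescaling to equal totals without mitochondrial genes (adjusted p = 0.0635). The median log2 change of this list was 0.02 in cKO against control, beside 0.01 over all genes.

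Of 24 scaffold and trafficking genes of the postsynaptic site 1 rose and 1 fell in cKO against control. The share of all genes called in that comparison was 9.00%. Dlg1 encodes SAP97, a scaffold known to bind the tail of GluA1. It was at 59.8, 55.3, 59.9 and 55.4 TPM in cKO libraries, 64.3, 65.6, 60.8 and 61.3 TPM in cHet libraries and 67.2, 68.3, 68.7 and 68.5 TPM in control libraries, and the 3 groups did not overlap with each other. Dlg1 fell by 0.24 ± 0.04 on the log2 scale in cKO against control (limma adjusted p = 0.00199), and its difference of -0.11 ± 0.04 in cHet against control did not pass the test (limma adjusted p = 0.303). Dlgap3, another postsynaptic scaffold gene, was at 41.0 ± 1.68 TPM in cKO and 37.0 ± 1.501 in control (limma adjusted p = 0.0408). The call of Dlgap3 was lost under 14 of 24 alternatives, among them both rescalings and those without cKO replicate 2, 3 or 4, cHet replicate 1, 2 or 3, or control replicate 1, 2 or 4 (adjusted p = 0.0510 to 0.164). The median of the list was 0.06. In cKO against cHet no gene of this list was called, with the kinase gene Camk2a at 57.1 ± 0.783 TPM in cKO and 52.2 ± 2.48 in cHet (limma adjusted p = 0.0644) and the pentraxin receptor gene Nptxr at 27.9 ± 0.880 TPM in cKO and 25.2 ± 0.976 in cHet (limma adjusted p = 0.0661). Camk2a was called without cHet replicate 2 (limma adjusted p = 0.0190) and after rescaling to equal totals without mitochondrial genes (limma adjusted p = 0.0361), and its adjusted p lay between 0.0190 and 0.150 over 24 alternatives. Nptxr was under 0.05 by both tests in the authors' deposited table (q = 0.0300 by the Wald test and 0.0492 by the likelihood ratio test).

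Of 9 genes that make, move or break down the NMDA co-agonists glycine and D-serine 1 rose in cKO and none fell, with a median log2 change of 0.11 against control. The share of all genes called was 9.00% in cKO against control and 5.01% in cKO against cHet. Slc7a10, the gene of a transporter of D-serine, glycine and other small amino acids, was at 171, 173, 159 and 190 TPM in cKO libraries, 101, 120, 117 and 139 TPM in cHet libraries and 124, 118, 114 and 123 TPM in control libraries. All 4 cKO libraries lay above all others. Its log2 change was 0.53 ± 0.08 against control (limma adjusted p = 0.00185) and 0.54 ± 0.08 against cHet (limma adjusted p = 0.00198). None of the 3 genes of the RNA editing list was called in any comparison, with a median log2 change of 0.05 in cKO against control. Adarb1, whose enzyme edits the GluA2 message, was at 78.2 ± 0.778 TPM in cKO, 78.3 ± 0.965 in cHet and 75.6 ± 0.943 in control (SD, n = 4; limma adjusted p = 0.243 in cKO and 0.459 in cHet against control). Adarb2 was at 6.996 ± 0.203 TPM in cKO and 6.75 ± 0.270 in cHet, and Adar at 61.9 ± 2.02 TPM in cKO, 57.2 ± 2.84 in cHet and 59.6 ± 3.09 in control. The table holds levels per gene, so editing, splicing and the flip and flop forms were not measured.

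In cHet against control no gene of these 6 lists was called, and the 2 genes with the smallest p of each list are given as values, here or, for Dlg1 and Adarb1, above. Among ionotropic subunits Grik1 was at 8.67 ± 0.807 TPM in cHet and 10.4 ± 1.38 in control, and Grik5 at 33.4 ± 1.68 TPM in cHet and 35.4 ± 1.39 in control (SD, n = 4). Among metabotropic receptors Grm8 was at 5.01 ± 0.361 TPM in cHet and 4.34 ± 0.549 in control, and Grm2 at 1.93 ± 0.729 TPM in cHet and 2.14 ± 0.250 in control. Of auxiliary subunits, Cacng3 was at 9.63 ± 0.647 TPM in cHet and 11.1 ± 0.772 in control, with groups that did not overlap, and Shisa7 at 18.5 ± 3.22 TPM in cHet and 21.5 ± 1.49 in control. The scaffold gene Shank3 was at 21.4 ± 1.195 TPM in cHet and 18.8 ± 1.25 in control. Among co-agonist genes Slc1a4 was at 24.3 ± 1.002 TPM in cHet and 25.5 ± 1.40 in control, and Gcsh at 77.6 ± 4.75 TPM in cHet and 74.8 ± 2.998 in control. From the RNA editing list, Adarb2 was at 6.75 ± 0.270 TPM in cHet and 7.32 ± 0.445 in control. The limma adjusted p of the 12 genes lay between 0.303 for Dlg1 and 0.788 for Grm2.

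**Figure D4:**
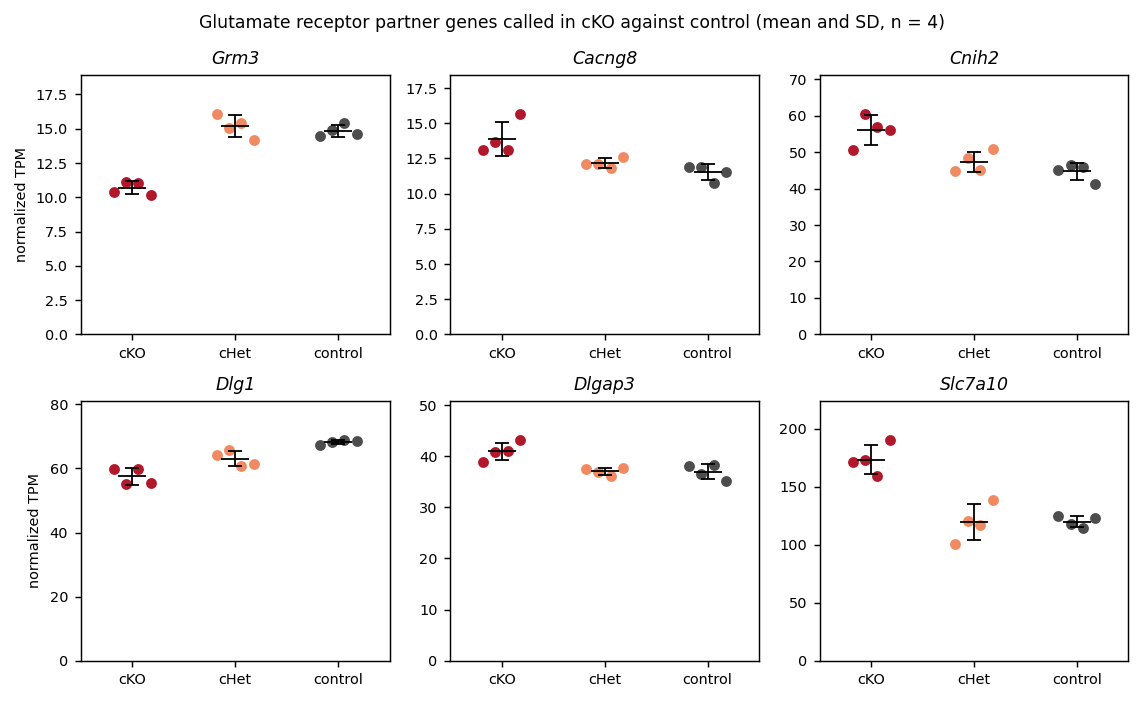
Normalized TPM (vertical axes from 0) of 6 genes from the glutamate signalling lists that were called in cKO against control, in cKO, cHet and control mice. Points are single mice and bars with whiskers give the mean and SD (n = 4). Grm3 and Dlg1 are lowest in cKO, at 10.2 to 11.1 and 55.3 to 59.9 TPM, and Cnih2, Cacng8, Dlgap3 and Slc7a10 are highest there.

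Levels of some cell type markers also differed between the groups, and their part in the results was not tested. The share of all genes called in cKO against control was 9.00%. Summed over 10 pan-neuronal markers, the level was 7093 to 7694 TPM in cKO, 7037 to 7638 TPM in cHet and 6832 to 7190 TPM in control libraries, and 2 of the 10 rose in cKO against control, Rbfox3 and Syn1. Of 9 astrocyte markers 3 rose (Slc1a2, Aldoc and Gfap) and 2 fell (Slc1a3 and Gja1) in cKO against control, and their sum was 4643 to 5055 TPM in cKO, 4158 to 4356 TPM in cHet and 4007 to 4230 TPM in control libraries. Mature oligodendrocyte markers fell in 5 of 8 cases, with sums of 17443 to 19862 TPM in cKO, 20990 to 24930 TPM in cHet and 20972 to 21966 TPM in control libraries. Oligodendrocyte precursor markers summed to 122 to 135 TPM in cKO, 134 to 152 TPM in cHet and 137 to 149.5 TPM in control libraries, and 1 of 7 fell, Ptprz1. Microglia markers rose in 4 of 6 cases, with sums of 216 to 231 TPM in cKO, 179 to 196 TPM in cHet and 178 to 187 TPM in control libraries. None of 7 motor neuron markers, 6 excitatory neuron markers and 4 endothelial markers was called, and Slc32a1 was the 1 of 8 inhibitory neuron markers that rose. In cHet against control no marker was called. In cKO against cHet, where 5.01% of all genes were called, 7 of 8 mature oligodendrocyte markers fell and 2 of 10 pan-neuronal markers rose. Of 9 astrocyte markers 4 rose and 2 fell there, and 3 of 6 microglia markers rose. No tested marker of the other lists was called in that comparison.

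Some features that the choice of members did not use were compared. In a fit with a term for sex no subunit gene differed between males and females (limma adjusted p at least 0.847), and at an unadjusted p under 0.05 there was none either. Over the 12 mice, the log2 levels most like those of Grin1, by Pearson's r over all genes tested, were those of Disp2, Plekhg5 and Nptxr, and those most like Gria2 were those of Tmem110, Herc1 and Epb41. The values of r lay between 0.88 and 0.91, and between 0.74 and 0.90 without the 2 mice farthest from the median of the member, as a description over mice that share their groups and scaling. Taking the highest r among 15259 genes over 12 mice favours high values. How high r would reach among unrelated genes was not tested. TDP-43 is known to bind runs of UG in RNA. In the transcripts that GENCODE M21 annotates, the longest uninterrupted TG run was 27 repeats in Gria2 and 21 in Grin2b, and 3 or 4 in the other 8 genes, Grin2c and Gria1 included with 3 each. The Gria2 run was found in a transcript of 2147 bases, among the 8 annotated for that gene. Whether the other transcripts hold it is not reported here. A run of at least 6 repeats was in 13.3% of 15046 genes with annotated transcripts. Introns were not searched.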

How the data were processed

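RNA sequencing libraries were made from spinal cords frozen in liquid nitrogen, with Trizol and an Illumina TruSeq kit, per the labels' protocols. Kallisto 0.44.0, sleuth 0.30.0 and GRCm38 are named in the submitters' processing notes. The annotation release and the strand setting were not stated there. The authors deposited normalized TPM per gene, a signal that is never negative and is scaled between libraries. It keeps no read depth, so depth is unknown and no counting interval is given. The authors' deposited tables give p-values and q-values and an effect estimate taken here as natural log (ln), used only for its sign.

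Values were analysed as log2(TPM + 0.5) for genes whose mean over all mice reached 1 TPM, with limma 3.58.1 in R 4.3.3 (lmFit, eBayes with trend, two-sided), fitted to the 12 mice together without covariates and with Benjamini-Hochberg adjustment over all genes of a comparison. A fold change on this scale understates the change of low genes. The step was tested on simulated data. Fold changes in percent are of mean TPM. Each SD is over 4 mice, each SE that of limma. Alternatives changed the pseudocount (0.1, 1), the filter (none, 5 TPM), scaling, groups in the fit, sex term, trend, rows per symbol, the test and the mice. The labels name each library by a separate mouse and no litter, batch or date. The replicate numbers used here are not in the labels and follow the order of the samples within each group. Sums and shares over members are described without a test.

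The members and lists were chosen with earlier results of these data known. All 10 members are named, and from each list of other glutamate signalling genes the called ones (4 at most, by adjusted p) or, with none called, the 2 of smallest p. The genes most like Grin1 and Gria2 are the top 3 by Pearson's r. Promoter sequences are from RefSeq (GRCm38.p6), coordinates from GENCODE M21 (GRCm38).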

Additional observations from a re-analysis of the deposited data

Results flagged for a closer look

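In 36 groups of 4 libraries examined (10 genes and 2 sums in 3 groups), 2 held a library far from the other 3, about what chance gives, since chance marks about 1 in 20. Gria1 was at 37.6 TPM in cKO replicate 2, with the other cKO libraries at 42.8 to 43.7 TPM. Without that mouse the fall of Gria1 against control was 0.23 on the log2 scale (limma adjusted p = 0.0991). Grin2c was at 6.0 TPM in control replicate 4, with the other control libraries at 7.53 to 7.71 TPM, and Grin2c was still called in cKO whichever mouse was left out. No subunit gene passed a test of a different effect of genotype between males and females. With 2 mice of each sex per group, that test could miss a difference.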

How the results depend on the processing

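Grin2c kept its call and direction in cKO under every alternative run, and no result called in the main analysis changed sign. The count of subunit genes called in cKO against control was 1 without a filter on low values and 1 without the variance trend, and lay between 1 and 2 when single mice were left out. In cKO against cHet it was 1 with only those 2 groups in the fit, 1 by the authors' deposited likelihood ratio q-value, and 1 to 2 without single mice. In cHet against control it stayed at 0 under every alternative. Over all genes, leaving out single mice gave 814 to 1512 calls in cKO against control (814 without cKO replicate 2, 890 without cKO replicate 4, 907 without control replicate 2), 0 to 1 in cHet against control (1 without control replicate 2) and 532 to 715 in cKO against cHet. In cHet against control the count was 2 without a filter and 28 by the authors' deposited Wald q-value. Median-of-ratios rescaling gave 699 higher and 575 lower calls in cKO against control. Rescaling to equal totals without mitochondrial genes moved the difference in summed TPM, cKO minus control, to -17.6 for AMPA (-7.67 as deposited) and -7.88 for NMDA (-0.81 as deposited), and cHet minus control to -8.93 for AMPA (1.32 as deposited, so of the other sign) and -19.3 for NMDA (-12.3 as deposited). Why the totals of the deposited values differ between the groups was not tested. No paired analysis was possible because the labels carry no replicate numbers that could pair mice across groups.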
